A study of Mus musculus with 2 samples.

Results

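Host fibroblasts were sought in dissociated subcutaneous tumours grown from Lewis lung carcinoma (LLC), a transplantable mouse lung carcinoma line, by marker genes alone. Members were chosen by measured UMIs of 14 genes. A cell barcode was taken when 4 genes that name the tumour cells here (Hmga2, Igf2bp1, Igf2bp2 and Wnt7b) summed to under 300 counts per 1000000 of its UMIs (CPM), Pdgfra, Dpt, Clec3b, Pi16 and Mfap5 summed to at least 3 UMIs, Col1a1, Col1a2 and Col3a1 summed to at least 5 UMIs, and C1qa and Pecam1 had 0 UMIs. A UMI is a molecular tag that counts 1 captured molecule. The rule chose 236 of 17817 kept barcodes, 84 of 8395 from the control library and 152 of 9422 from the anti-PD-1 library. One library came from tumours of mice given an IgG2a isotype control antibody, called untreated in the series text, and the other from tumours 7 days after anti-PD-1 antibody, which blocks an inhibitory receptor of T cells. With 1 library per group, the difference between treatments and the difference between these tumours and libraries cannot be told apart, so no test is given. The mouse strain, sex, age and number of mice per library are not given in the sources used here. All intervals cover counting error only, at 95% confidence.

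The data went against the label for most of the chosen cells. Only 40 of the 236 carried type I collagen RNA in quantity together with the outside fibroblast markers. The other 196 had almost no Col1a1 or Col1a2, had Clec3b, Pi16 and Mfap5 at or near 0, and lay closer in overall expression to the tumour-marker barcodes. These are called type I collagen-high and type I collagen-low cells below, divided at 1000 CPM of Col1a1 plus Col1a2. That division was chosen after the values were seen, and it uses genes of the rule, so everything it separates is a description.

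Fibroblasts build the connective tissue matrix. Type I collagen is a trimer of chains encoded by Col1a1 and Col1a2, type III collagen is made of the Col3a1 chain, and Lox and its relatives crosslink the fibrils outside the cell. In skin and around vessels, a fibroblast class marked by Pi16, Dpt, Cd34 and Clec3b is found in the adventitia and fascia, while fibroblasts of wounds and tumours commonly carry Postn, Tnc and Cthrc1. Ptn encodes pleiotrophin, a secreted heparin-binding growth factor.

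The genes that parted the cells were Col1a1 (chr11:94936224-94953042, + strand), Col1a2 (chr6:4504814-4541544, + strand) and Ptn (chr6:36714929-36810220, − strand). Col3a1 (chr1:45311538-45349706, + strand), a gene of the rule, did not part them. All 4 are protein-coding genes in the GENCODE vM21 annotation of mm10. The 250 bases before the RefSeq start (GRCm38.p6, the mm10 assembly) were matched by symbol for 3 of these 4 genes and are shown because Col3a1 was present in both groups of cells, Col1a2 in one and Ptn mainly in the other. Each runs 5′ to 3′ on the gene's strand, and capitals mark every match, on either strand, to TATAAA (the TATA box letters), to CCAAT (the CCAAT box letters) or to GGGCGG (the GC box letters).
Col1a2, chr6:4505368-4505617, + strand: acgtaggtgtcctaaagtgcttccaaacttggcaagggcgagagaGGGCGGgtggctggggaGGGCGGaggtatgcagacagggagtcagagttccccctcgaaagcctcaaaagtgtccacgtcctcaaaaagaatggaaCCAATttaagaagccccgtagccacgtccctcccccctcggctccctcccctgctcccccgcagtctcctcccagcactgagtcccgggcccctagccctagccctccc
Col3a1, chr1:45311288-45311537, + strand: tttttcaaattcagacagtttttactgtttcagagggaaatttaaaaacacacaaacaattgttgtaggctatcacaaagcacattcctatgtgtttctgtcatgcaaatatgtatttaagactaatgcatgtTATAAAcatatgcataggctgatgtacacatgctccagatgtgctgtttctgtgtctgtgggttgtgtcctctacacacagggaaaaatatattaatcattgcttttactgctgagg
Ptn, chr6:36810180-36810429, − strand: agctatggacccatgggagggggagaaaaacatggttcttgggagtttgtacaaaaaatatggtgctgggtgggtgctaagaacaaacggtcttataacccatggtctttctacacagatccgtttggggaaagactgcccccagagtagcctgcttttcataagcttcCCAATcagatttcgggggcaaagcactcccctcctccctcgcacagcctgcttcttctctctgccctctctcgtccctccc
The Col1a2 window held 1 CCAAT and 2 GGGCGG matches and was 62% G or C. The Col3a1 window held 1 TATAAA match and was 35.2% G or C, and the Ptn window held 1 CCAAT match and was 52% G or C. Of 32851 RefSeq windows of the same length, 12.4% held TATAAA, 33.8% CCAAT and 32.7% GGGCGG. These matches describe letters only, and no binding was measured.

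Kept barcodes had a median of 7473 UMIs in the control and 8744 in the anti-PD-1 library, and the chosen cells 7736 and 7286. Mean depth of the type I collagen-high cells differed, at 16325 UMIs per cell in the control library, with a highest cell of 78404, and 8360 in the anti-PD-1 library, with a highest cell of 21080. The 2 libraries shared 107 barcode sequences. None was chosen in both, and 4 chosen anti-PD-1 barcodes also occurred in the control library. No doublet caller was run, and the part of doublets in any result was not tested. The 4 Y-linked genes in the files had 0 UMIs in every class of barcode and Cdkn2a and Cdkn2b were at or near 0 in every class, so neither set could tell host from tumour cells.

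Type I collagen split the chosen cells with a wide gap. In type I collagen-high cells, the sum of Col1a1 and Col1a2 ran from 6221 CPM over a median of 43249 to 141035 in the 17 control cells, and from 6441 over 116290 to 275687 in the 23 anti-PD-1 cells. In type I collagen-low cells the median was 0 in both libraries and the highest cell reached 716 CPM among 67 control and 768 among 129 anti-PD-1 cells. No chosen cell lay between 768 and 6221 CPM. That the groups do not overlap on this sum is fixed by the division itself. In macrophage barcodes, which should not make type I collagen, 23.6% (20.1 to 27.4, exact binomial) of 547 control barcodes had a Col1a1 UMI at a median depth of 3790 UMIs, against 23.9% (14.3 to 35.9) of the type I collagen-low control cells at 7749 UMIs. In the anti-PD-1 library the shares were 12% (9.64 to 14.7) at 3913 UMIs and 17.8% (11.7 to 25.5) at 7302 UMIs. Some macrophage barcodes were rich in Col1a1, with highest values of 75801 CPM in the control and 105213 CPM in the anti-PD-1 library. That class is therefore not a clean background. The Col1a1 UMIs of the low cells are not read as expression, and their source was not tested.

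Ptn ran the other way. In type I collagen-low cells it ran from 243 CPM over a median of 3868 to 12015 in the control library and from 0 over 4981 to 20889 in the anti-PD-1 library, with a UMI in all 67 and in 126 of 129 cells. In type I collagen-high cells the medians were 51.0 and 0 CPM and the highest cells had 856 and 805 CPM. The low medians lay above every high cell, as the plot of both genes in each cell shows.

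**Figure D1:**
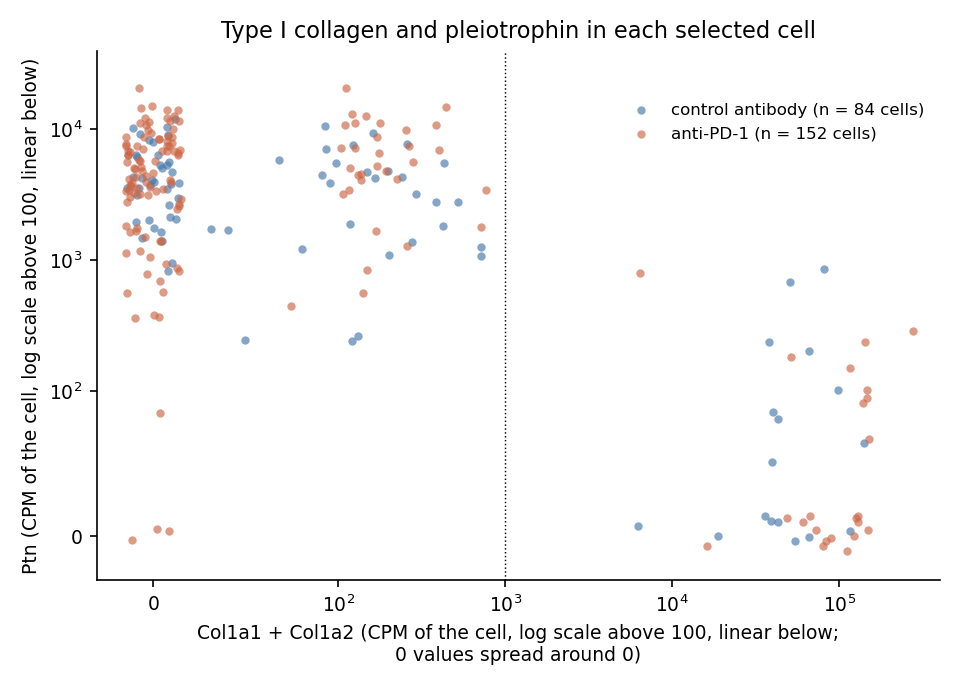
Each point is 1 chosen cell, placed by its Col1a1 plus Col1a2 CPM (x) and its Ptn CPM (y), coloured by library; both axes are linear below 100 CPM and logarithmic above, and values of 0 are spread around 0. The dotted line marks 1000 CPM, and no cell lies between 768 and 6221 CPM.

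Type III collagen belongs to the rule, and the low cells, with so few Col1a1 and Col1a2 UMIs, could meet its limit of 5 collagen UMIs mainly through Col3a1. All 236 cells had a Col3a1 UMI, which the rule largely fixes, and 55.6% (51.3 to 59.8) and 57.5% (53.7 to 61.3) of macrophage barcodes had one. Col3a1 had medians of 45396 and 63269 CPM in the type I collagen-high cells of the control and anti-PD-1 libraries and of 14452 and 21828 CPM in the low cells. Its summed level in tumour-marker barcodes was lower than in both groups (plot of gene levels). Of the 5 marker genes of the rule, Pdgfra, the receptor for platelet-derived growth factor A, stood at 295 and 322 CPM in the high cells and at 423 and 517 CPM in the low cells. Dpt, encoding the matrix protein dermatopontin, was at 1867 and 1576 CPM against 911 and 846. The other 3 were carried by the high cells alone in quantity. Clec3b, encoding tetranectin, had 411 and 567 CPM against 0 and 2.96. Pi16, encoding a protease inhibitor that marks adventitial fibroblasts, had 778 and 910 CPM against 3.38 and 6.90, and Mfap5, a microfibril component, 1798 and 1878 CPM against 5.07 and 0.986. The type I collagen-low cells thus met the rule through Pdgfra, Dpt and Col3a1.

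Of fibroblast markers that the rule did not use, 13 of 16 had at least 100 UMIs over the chosen cells. Of these 13, 7 (53.8%) were over 2-fold higher in the high cells in both libraries and 0 in the low cells, where 4.76% and 23.8% of all genes with as many UMIs were. The 7 were Mmp2, Cd34, Gpx3, Fbln1, Sfrp4, Scara5 and Tnxb, and the 6 that did not pass were Dcn, Lum, Pdgfrb, Serpinf1, Gsn and Pcolce2. All 16 reached 20 CPM in both libraries of the type I collagen-high cells, against 7 of 16 in the low cells, 6 in tumour-marker barcodes and 6 in macrophage barcodes. Their summed level was 10479 and 14006 CPM in the high, 4986 and 5286 in the low and 2412 and 2463 in the tumour-marker barcodes. Mmp2, encoding gelatinase A, had a UMI in 16 of 17 and 21 of 23 high cells and in 1 of 67 and 0 of 129 low cells. Cd34, a surface sialomucin, was at 1056 and 671 CPM in the high cells against 3.38 and 0.986 CPM in the low cells. Thy1, a surface glycoprotein of fibroblasts that is not on that marker list, was at 2360 and 1940 CPM against 16.9 and 1.97. Decorin (Dcn), a small proteoglycan that binds collagen fibrils, was held by both groups, at 2169 and 2876 CPM in the high and 1221 and 1475 CPM in the low cells. Summed markers of other classes were low in the high cells, but leukocyte RNA was present in some of them. High cells with 0 UMIs of Ptprc and Tyrobp were 15 of 17 in the control and 11 of 23 in the anti-PD-1 library. The source of this RNA was not tested. The 10 macrophage markers summed to 231 and 468 CPM against 19593 and 33519 in macrophage barcodes. Adipocyte markers had 0 UMIs, and 11 pericyte and smooth muscle markers summed to 267 and 187 CPM with 6 of them at 0.

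**Figure D2:**
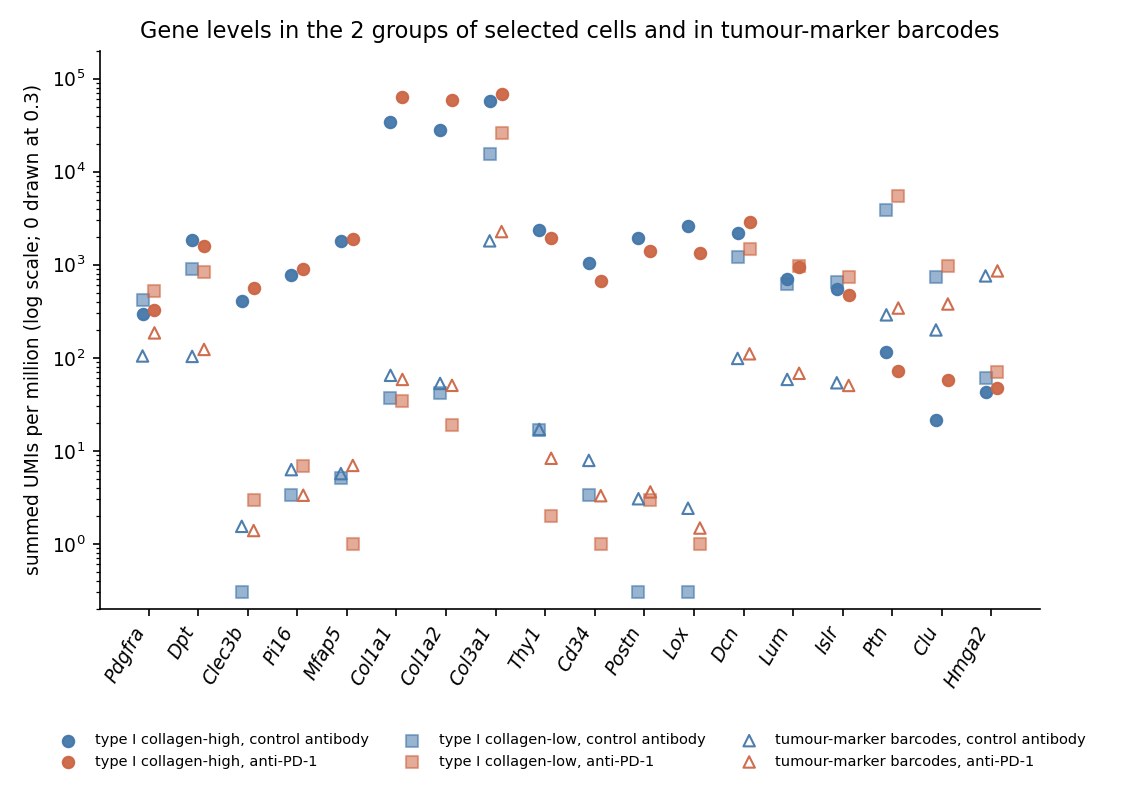
Summed CPM (log axis, 0 drawn at 0.3) of 18 genes in type I collagen-high cells (filled circles), type I collagen-low cells (squares) and tumour-marker barcodes (open triangles), control library in blue and anti-PD-1 in orange. From Clec3b to Lox, leaving out Col3a1, the squares lie near or below the triangles, while for Dcn, Lum and Islr they lie near the circles.

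Beyond the rule genes, 5250 genes had at least 100 UMIs over the chosen cells. Of these, 250 (4.76%) were over 2-fold higher in the type I collagen-high cells in both libraries and 1250 (23.8%) over 2-fold higher in the low cells. The UMI minimum was met over both groups together, and the high cells held 31.9% and 15.9% of the chosen cells' UMIs. Within the low cells 4408 genes had at least 100 UMIs, and within the high cells 638. The 250 and the 1250 are therefore not set against each other. The 6 highest ratios toward the high cells were those of Lox, Postn, C4b, Mmp2, Serping1 and Cd34, and the 25 highest also held Thy1, the transcription factor gene Egr1 and the receptor gene Adgrd1. Lox, the collagen crosslinking enzyme, was at 2609 and 1331 CPM in the high cells against 0 and 0.986 in the low cells, where 3 UMIs would be 5.07 and 2.96 CPM. Postn, encoding periostin, was at 1928 and 1420 CPM against 0 and 2.96. C4b, a complement component, was at 1989 and 1810 CPM against 5.07 and 5.91, and Serping1, the inhibitor of complement C1, at 1758 and 707 CPM against 0 and 0.986. Has1, which makes hyaluronan, and Tnfaip6, which modifies it, were at 1031 and 962 CPM and at 865 and 811 CPM in the high cells and under 7 CPM in the low cells.

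The counts of the gene lists are given beside the 4.76% of all genes that were higher in the high cells and the 23.8% that were higher in the low cells. Of adventitial fibroblast genes with enough UMIs, 12 of 14 (85.7%) were over 2-fold higher in the high cells in both libraries, among them Has1, Cd34, Igfbp6 and Sema3c, and 0 of 14 in the low cells. Matrix proteases and inhibitors had 14 of 24 (58.3%) higher in the high cells, among them Mmp2, Timp1, Timp3 and Ctsk. The 4 higher in the low cells (Mmp3, Mmp11, Mmp28, Adamts1) were 16.7%, under the share over all genes. Myofibroblast genes had 8 of 15 (53.3%) in the high cells, with Tnc, Postn and Cthrc1, and 2 in the low. Complement and coagulation genes had 7 of 14 (50%) in the high cells and 1, Clu, in the low. Of collagens outside the rule, 6 of 17 (35.3%) were higher in each group, against 4.76% of all genes toward the high cells and 23.8% toward the low cells. They were Col5a2, Col5a3, Col8a1, Col12a1, Col14a1 and Col15a1 in the high cells, and the basement membrane chains Col4a2, Col4a5 and Col4a6 with Col7a1, Col16a1 and Col18a1 in the low cells. Proliferation genes had 12 of 26 (46.2%) higher in the low cells and 0 in the high, by summed UMIs. Within the high cells alone, 0 of the list's genes had enough UMIs. Summed per cell, the list had medians of 1234 CPM (control) and 1129 CPM (anti-PD-1) in the high cells. In the low cells they were 1496 and 1286 CPM. The upper quartiles lay further apart, at 1595 and 1868 CPM in the high and 2597 and 2968 CPM in the low cells. Type I interferon response genes had 8 of 25 (32%) higher in the low cells and 0 in the high, a share near that over all genes.

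**Figure D3:**
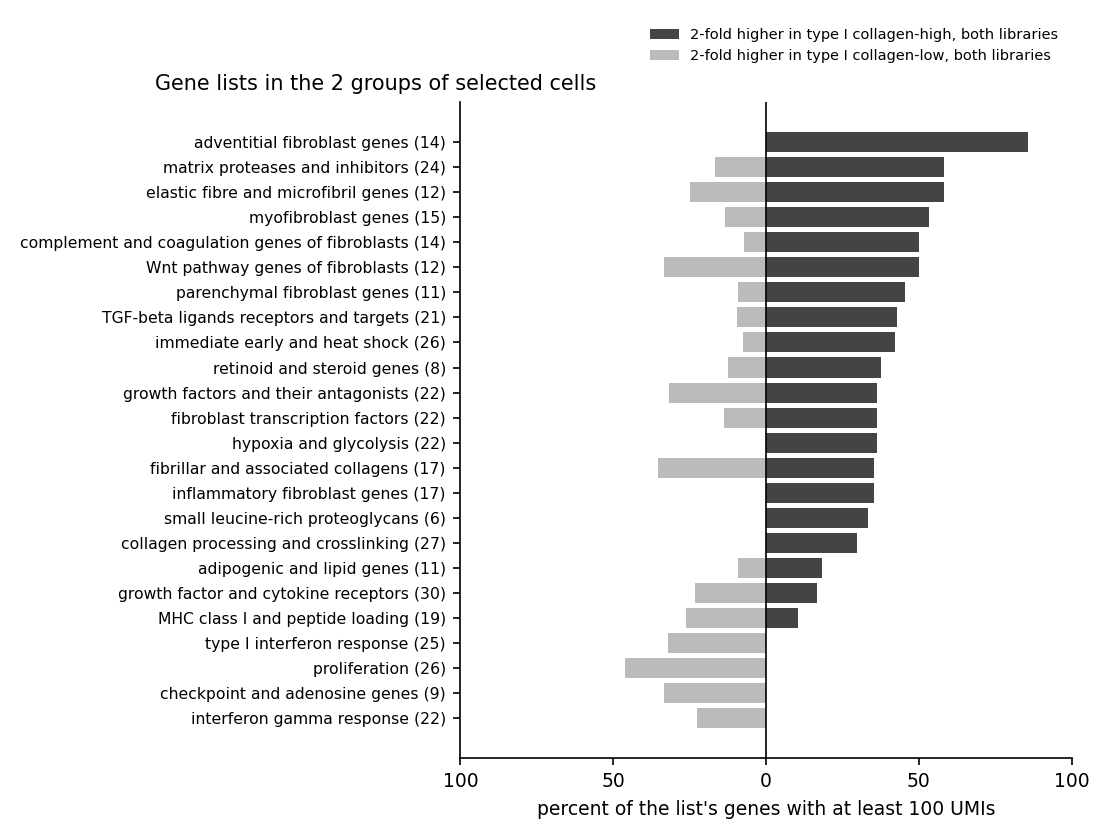
For each gene list, the percent of its genes with at least 100 UMIs (number in brackets) that were over 2-fold higher in both libraries in type I collagen-high cells (dark bars, right) or in type I collagen-low cells (grey bars, left). Adventitial genes reach 12 of 14 on the right, and proliferation genes 12 of 26 on the left.

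The type I collagen-low cells were led by other genes. Next to Ptn, the largest ratios over the high cells were those of Clu, encoding the chaperone clusterin, at 737 and 981 CPM against 21.6 and 57.2, and of Il2rg, the common cytokine receptor gamma chain, at 237 and 239 CPM against 14.4 and 15.6. Il2rg stood at 192 and 196 CPM in tumour-marker barcodes. Of 12 listed LLC markers outside the rule, 3 had at least 100 UMIs over the chosen cells. Of these 3, 2 (66.7%), Dkk2 and F2r, were over 2-fold higher in the low cells in both libraries and 0 in the high cells. The shares over all genes were 23.8% and 4.76%. In the low cells 3 of the 12 had 0 UMIs in both libraries. The number reaching 20 CPM in both libraries was 3 in the low cells, 3 in the high cells and 4 in tumour-marker barcodes. Summed, the 12 were at 947 and 870 CPM in the low cells and 263 and 270 CPM in the high cells. In tumour-marker barcodes they summed to 520 and 798 CPM. The 4 tumour-naming genes of the rule summed to 199 and 168 CPM in the low cells, 93.7 and 98.8 CPM in the high cells and 133 and 107 CPM in macrophage barcodes, under the limit of 300 that the rule sets. Leukocyte markers were also present at low levels: the 5 of them summed to 281 and 159 CPM in the low cells, 68.5 and 166 CPM in the high cells and 3783 and 4343 CPM in macrophage barcodes.

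Across the same 5250 genes, on the log2(CPM + 10) scale, type I collagen-low cells and tumour-marker barcodes had a Spearman rho of 0.81 in the control and 0.82 in the anti-PD-1 library. Low cells and macrophage barcodes had 0.67 and 0.64, so a class of other cells also gave a high value. Type I collagen-high cells had 0.46 and 0.52 with the low cells, 0.44 and 0.48 with tumour-marker barcodes, and 0.55 and 0.51 with macrophage barcodes. Between libraries the high cells had 0.75 with themselves and the low cells 0.90. The 5250 genes were chosen by UMIs of the chosen cells, most of which came from the low cells. Genes are not independent, the classes share a library and its free RNA, and the summed depths differ, so these values are descriptions. Of the 1250 genes higher in the low than in the high cells, 1074 (85.9%) lay within 2-fold of the low cells' level in tumour-marker barcodes of both libraries. Of the 250 genes higher in the high cells, 99 (39.6%) did so. The share over all 5250 genes was not computed, so the 85.9% is a description and not a measure of likeness.

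Some genes stood higher in the low cells than in tumour-marker barcodes. Among genes with at least 100 CPM in the low cells of both libraries, the 7 largest ratios were those of Apod, Ptn, Dcn, Islr, Col6a2, Adamts1 and Lum, followed by Ighm, an immunoglobulin heavy chain gene. Ptn was at 3880 and 5479 CPM against 289 and 342 CPM. Dcn was at 1221 and 1475 CPM against 98.3 and 110 CPM. Lum, encoding lumican, was at 626 and 969 CPM against 58.5 and 68.1, and Islr, encoding meflin, at 651 and 733 CPM against 53.8 and 50.4. Col6a1 and Col6a2, chains of the microfibrillar type VI collagen, were at 1904 and 2145 CPM and 1437 and 1843 CPM against at most 252 CPM. Apod, encoding apolipoprotein D, had the largest ratio, at 279 and 392 CPM against 11.0 and 19.3 CPM. Dcn, Lum, Islr and Col6a2 were also found in the type I collagen-high cells, at 478 CPM or more.

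The boundary with tumour-marker barcodes was not sharp. Among all kept barcodes, 436 control and 775 anti-PD-1 barcodes had at least 2000 CPM of Ptn. Their tumour-naming genes had a median of 477 and 480 CPM, and only 48 and 99 of them were chosen. Cells just inside the limit, at 200 to 300 CPM of the tumour-naming genes, had 3327 and 3627 CPM of Ptn. Barcodes just outside, at 300 to 400 CPM and otherwise meeting the rule, had 2122 and 3850 CPM, and 2 of 33 and 0 of 87 of those outside were type I collagen-high. A further 97 and 98 barcodes met every condition but 0 UMIs of C1qa and Pecam1, and 19 and 6 of these were type I collagen-high. Barcodes with 2 marker UMIs, 1 below the limit, numbered 10 and 18.

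Clustering of the chosen cells without the 14 rule genes gave 4 clusters. One cluster of 35 cells, 15 control and 20 anti-PD-1, held only type I collagen-high cells and was led by Mmp2, Postn and Lox. Of the remaining 5 type I collagen-high cells, 2 fell in a cluster of 98 cells and 3 in a cluster of 51 cells. A cluster of 52 cells was led by interferon-induced genes (Ifit3b, Ifit1, Cmpk2, Usp18) and comprised 18 of the 84 control and 34 of the 152 anti-PD-1 cells. The cluster of 98 cells, 39 control and 59 anti-PD-1, had weak leaders, with Esrrg first at 56.3 against 9.40 CPM. The leaders after it were Gzmc, Dixdc1, Lyz1, Ece2, Cd52, Il1b and Cd14, among them the leukocyte genes Gzmc, Lyz1, Cd52, Il1b and Cd14. Lyz1 was at 117 against 30.4 CPM. At resolution 1, a cluster of 21 control and 5 anti-PD-1 cells was led by Retnla, Il1rn and Cd86. The source of this leukocyte RNA was not tested. The cluster of 51 cells was led by genes of mitosis and DNA repair (Sapcd2, Depdc1b, Aspm, Rad54b), comprised 12 cells from the control and 39 from the anti-PD-1 library, and had 499 CPM of Mki67, against 62.4 to 85.2 CPM in the other 3. It also had the least Dpt, Col3a1 and Ptn of the low cells' clusters, at 400, 9100 and 2310 CPM.

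The share of chosen cells was 1.0% (0.799 to 1.24, exact binomial) of kept barcodes in the control and 1.61% (1.37 to 1.89) in the anti-PD-1 library, a difference of 0.613 percentage points. Nearly all of this lay in the type I collagen-low cells, at 0.798% (0.619 to 1.01) and 1.37% (1.14 to 1.62). Type I collagen-high cells were 0.203% (0.118 to 0.324) and 0.244% (0.155 to 0.366), intervals that overlap widely. The direction for the high cells depended on the rule: with C1qa and Pecam1 UMIs allowed they were 36 of 8395 (0.429%, 0.301 to 0.593) and 29 of 9422 (0.308%, 0.206 to 0.442), and with 0 UMIs of Ptprc and Tyrobp 15 (0.179%) and 11 (0.117%). Over all kept barcodes, 65 control and 58 anti-PD-1 barcodes had at least 10000 CPM of type I collagen. Of the barcodes under 300 CPM of tumour-naming genes, the chosen were 3.41% and 6.84%. Shares also depend on how tissue was dissociated and which cells were recovered, which was not measured. Type I collagen-high cells made 20.2% (12.3 to 30.4) of the chosen cells but 31.9% of their UMIs in the control library, and 15.1% (9.84 to 21.8) and 15.9% in the anti-PD-1 library, so a sum over all chosen cells weights the groups differently in the 2 libraries.

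Between the libraries, 5260 genes had at least 100 UMIs over all chosen cells. Of these, 37 (0.703%) were more than doubled in the anti-PD-1 library and 153 (2.91%) stood below 0.5 times the control level, and the median gene lay at 0.02 on the log2 scale. The lower count was 60 of 4714 genes without members over 3 times the median depth, and 81 with the clusters weighted equally. In the type I collagen-low cells 27 of 4408 genes (0.613%) were higher and 34 (0.771%) lower. In the high cells 19 of 638 (2.98%) were higher and 92 (14.4%) lower, with a median of −0.13. In tumour-marker barcodes 82 of 12186 (0.673%) were higher and 506 (4.15%) lower. The naming limits applied to the library with the higher level. They were at least 20 CPM, at most 20% of the UMIs in 1 cell, and at most 5 times higher in other classes. Within them, the 10 highest genes of the sum were Ifit2, Usp18, Col4a5, Il34, Rsad2, Col4a6, Tinagl1, Ifit3, Cxcl10 and Eif2ak2. The 10 lowest were the haemoglobin genes Hba-a2 and Hbb-bs followed by Zfp36, Cebpb, Ccn1, Ptgs2, Amotl2, Gadd45g, Fam162a and C3. In the other library, 1 cell held 41.25% of the UMIs of Cxcl10, 28.1% of Rsad2, 26.5% of Usp18 and 36.6% of C3. Genes outside the naming limits had larger ratios, such as Igfbp5 at 4.09 and Sfrp2 at 1.89, and Cxcl5 at −5.51, Cxcl14 at −5.35, Ltbp2 at −4.42 and Crabp1 at −4.34, each with between 36.4% and 91.7% of its UMIs of the higher library in 1 cell. A low ratio in the sum did not always hold within a group. C3 had a log2 ratio of −0.14 (−0.39 to 0.11) in the high cells. Amotl2 was at 368 and 104 CPM in the high and 47.3 and 54.2 CPM in the low cells. Zfp36 and Cebpb were lower in both groups.

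Type I interferon response genes were higher in the anti-PD-1 library in the type I collagen-low cells. Of 23 with enough UMIs, 9 passed 2-fold upward and 0 downward, with a median log2 ratio of 0.78 against −0.04 for all genes of these cells, where 0.613% of genes were over 2-fold higher. The list's median was 0.09 in tumour-marker barcodes, with 0 of 31 over 2-fold in either direction, and 0.32 in macrophage barcodes, with 2 of 30 over 2-fold higher and 0 lower. Rsad2, encoding the antiviral enzyme viperin (chr12:26442746-26456452, − strand), was at 52.4 CPM in the control and 240 CPM in the anti-PD-1 library, a log2 ratio of 2.19 (1.65 to 2.78), with UMIs in 17 of 67 and 46 of 129 cells. Usp18, which restrains interferon receptor signalling, was at 45.6 and 144 CPM, a ratio of 1.66 (1.06 to 2.31), but 1 control cell held 33.3% of its UMIs there. Ifit3, an interferon-induced antiviral gene, was at 94.7 and 235 CPM, a ratio of 1.31 (0.88 to 1.76). Isg15, a ubiquitin-like modifier, was at 79.5 and 195 CPM, a ratio of 1.30 (0.83 to 1.79). Bst2, which tethers budding virions, was at 1140 and 1646 CPM, a ratio of 0.53 (0.40 to 0.66). Zbp1 was the exception, at 176 and 136 CPM.

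The list's sum per cell shows that the libraries overlapped. It ran from 989 CPM over a median of 2711 to 20803 in the 67 control cells, and from 517 over 3141 to 34951 in the 129 anti-PD-1 cells. Quartiles were 2049 and 3903 in the control and 1914 and 5697 in the anti-PD-1 cells, and the upper quartiles lay further apart than the medians. In type I collagen-high cells the medians of this sum were 1858 CPM in the control and 1613 in the anti-PD-1 library, and 1 of the list's genes had enough UMIs for a ratio. That gene, Bst2, was at 468 and 806 CPM.

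**Figure D4:**
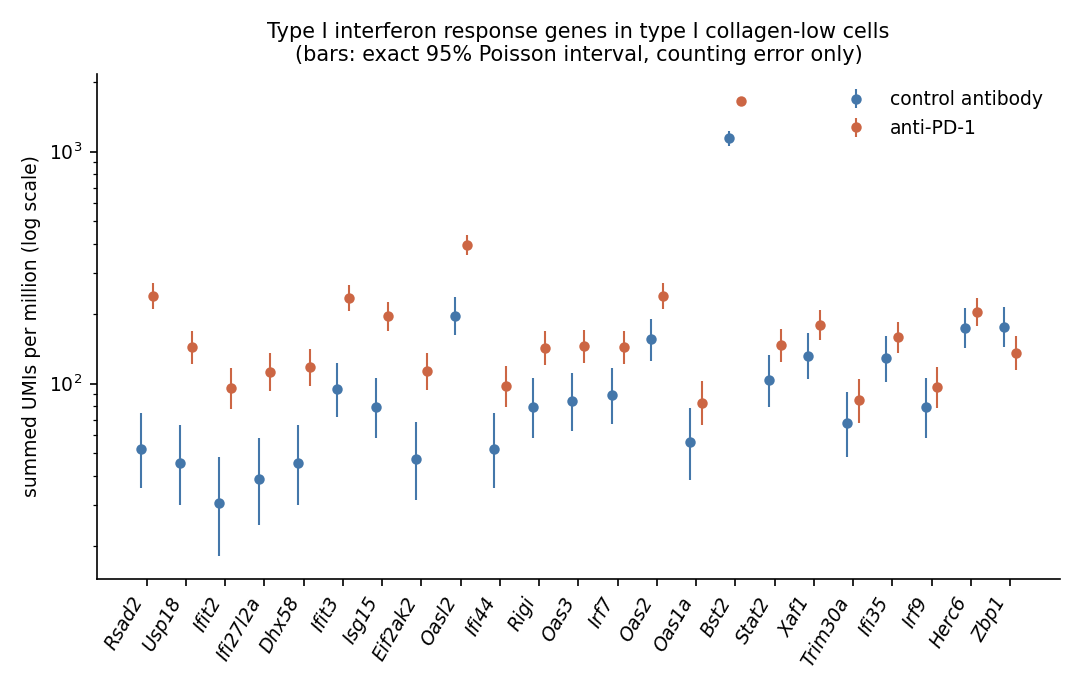
Summed CPM (log axis) of 23 type I interferon response genes in the type I collagen-low cells of the control (blue) and anti-PD-1 (orange) libraries, with exact 95% Poisson intervals. The intervals of Rsad2, Usp18 and Ifit3 lie apart, and Zbp1 is the gene that was lower in the anti-PD-1 library.

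Interferon gamma response genes had a median log2 ratio of −0.40 over all chosen cells and −0.36 in the type I collagen-low cells. There 1 of 20 (Cxcl10) was over 2-fold higher and 1 over 2-fold lower, beside 0.613% and 0.771% of all genes. The list's median was −1.14 in tumour-marker and −0.89 in macrophage barcodes, and with 4 measured genes the high cells have no median. Summed per cell, the list had medians of 4680 CPM in the control and 3124 in the anti-PD-1 library in the low cells, and of 3190 and 1329 CPM in the high cells. The anti-PD-1 type I collagen-high cells reached at most 2447 CPM, below the control median. In the high cells Iigp1, an immunity-related GTPase, had 214 UMIs in 11 of 17 control cells and 3 UMIs in 2 of 23 anti-PD-1 cells, at 771 and 15.6 CPM, and 1 control cell held 46.7% of them. Cxcl9, a chemokine that attracts T cells, had 114 UMIs and 1 UMI. In the low cells Iigp1 was at 319 and 167 CPM and Cxcl9 at 118 and 19.7 CPM, while Cxcl10, a related chemokine, was at 259 and 584 CPM. H2-K1, a classical MHC class I gene, was at 2169 and 1264 CPM in the high cells, a log2 ratio of −0.78 (−1.0 to −0.56), and at 2074 and 1610 CPM in the low cells, a ratio of −0.37 (−0.47 to −0.26). MHC class I and peptide loading genes had medians of −0.78 in the high and −0.32 in the low cells.

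Immediate early and heat shock genes, which also respond to tissue dissociation, had lower levels after anti-PD-1 in all 3 classes compared. The list's median was −0.87 in the type I collagen-high cells, where 6 of 17 were over 2-fold lower and 0 higher, beside 14.4% and 2.98% of all genes and a median of −0.13 there, −0.39 in the low cells and −0.55 in tumour-marker barcodes. Its sum per high cell ran from 2392 CPM over a median of 14572 to 52037 in the control and from 0 over 6441 to 37170 in the anti-PD-1 library. Egr1, an early growth response factor, was at 1358 and 494 CPM in the high cells, a log2 ratio of −1.46 (−1.80 to −1.13). Zfp36, which destabilises cytokine mRNAs, was at 746 and 182 CPM in the high and 318 and 130 CPM in the low cells, and at 203 and 122 CPM in tumour-marker barcodes. The haemoglobin genes had the 2 lowest ratios among genes within the naming limits. Hba-a2 was at 225 and 19.7 CPM in the low cells and at 366 and 32.1 CPM in tumour-marker barcodes. The part of dissociation or of blood content in these ratios was not tested.

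Single genes of the type I collagen-high cells often rested on few cells. The deepest control cell, with 78404 UMIs, held 28.3% of this group's control UMIs. Ratios of some genes outside the rule are therefore given also without the deepest cell of each library and as a ratio of mean CPM per cell. Col1a1 was at 34437 and 63707 CPM and Col1a2 at 28355 and 58521 CPM, log2 ratios of 0.89 (0.85 to 0.93) and 1.05 (1.0 to 1.09). Col3a1 was at 57622 and 68679 CPM, a ratio of 0.25 (0.22 to 0.29). These are rule genes, Col1a1 and Col1a2 also define the groups, and the spread over cells was wide in both libraries. Their ratios are not given in the other settings, and the intervals leave out the spread between cells. Among the other collagens Col6a3 had a ratio of 0.88 (0.73 to 1.03), 0.45 without the deepest cells and 0.61 per cell. Sparc, a collagen-binding matrix protein, was at 16658 and 22286 CPM, a ratio of 0.42, with 0.41 and 0.23 in the same settings. The collagen list had a median of 0.49 over 14 genes in the high cells and of 0.39 over 13 genes in the low cells, against 0.21 in tumour-marker barcodes.

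Secreted signalling genes of the high cells differed in both directions. Sfrp2, a Wnt antagonist, was at 115 and 858 CPM, a log2 ratio of 2.90 (2.34 to 3.49), with UMIs in 8 of 17 and 16 of 23 cells, and 2.58 and 1.85 in the other settings. Igfbp5, which binds insulin-like growth factors, was at 108 and 3812 CPM, a ratio of 5.14, but 1 anti-PD-1 cell held 52.5% of its UMIs and the ratio per cell was 1.59. Ccl7, a monocyte-attracting chemokine, was at 1416 and 161 CPM, a ratio of −3.13 (−3.71 to −2.61), −3.42 without the deepest cells and −3.11 per cell, with 56.7% of its control UMIs in 1 cell. Ccl2, a close relative, was at 458 and 120 CPM in the high cells and at 827 in both libraries in the low cells. Ccn1, a matricellular protein of the CCN family, was at 3665 and 993 CPM, a ratio of −1.88 (−2.11 to −1.66), −2.40 and −2.25 in the other settings, and Ccn2, its relative, had −2.97, −3.62 and −3.69. In the low cells Ccn1 was at 541 and 474 CPM. Cxcl14 had 617 and 21 UMIs in 7 of 17 and 5 of 23 cells. Inflammatory fibroblast genes as a list had a median of −0.32 over 11 genes in the high cells, −1.29 without the deepest cells and −1.28 per cell.

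Adventitial genes gave no stable direction. Their median was −0.75 over all chosen cells, −0.32 in the high cells, 0.75 without the deepest cell of each library and 0.05 per high cell. For Cd34 the ratio in the high cells was −0.65 (−0.96 to −0.35), and 0.75 without the deepest cells, and 1 control cell held 69.6% of its UMIs in that library. Pi16 and Mfap5, of the rule, had ratios of 0.23 (−0.07 to 0.52) and 0.06 (−0.14 to 0.26).

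Among growth factor and matrix genes of the low cells, Ptn had a log2 ratio of 0.50 (0.43 to 0.57) in the low cells and 0.24 in tumour-marker barcodes. Il34, a ligand of the macrophage colony-stimulating factor receptor, was at 87.9 and 199 CPM, a ratio of 1.18 (0.73 to 1.65), against 0.75 in tumour-marker barcodes. Col4a5 and Col4a6, paired basement membrane collagen genes, had 1.24 (0.81 to 1.70) and 1.15 (0.74 to 1.59), against 1.03 and 1.22 in tumour-marker barcodes. Lum had 0.63 (0.46 to 0.81) and Adamts1, a matrix protease, 0.69 (0.55 to 0.83), against 0.22 and 0.02 in tumour-marker barcodes. Proliferation genes had a median of −0.44 over 25 genes in the low cells, with Mki67 at 188 and 237 CPM and Top2a at 506 and 315 CPM.

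**Figure D5:**
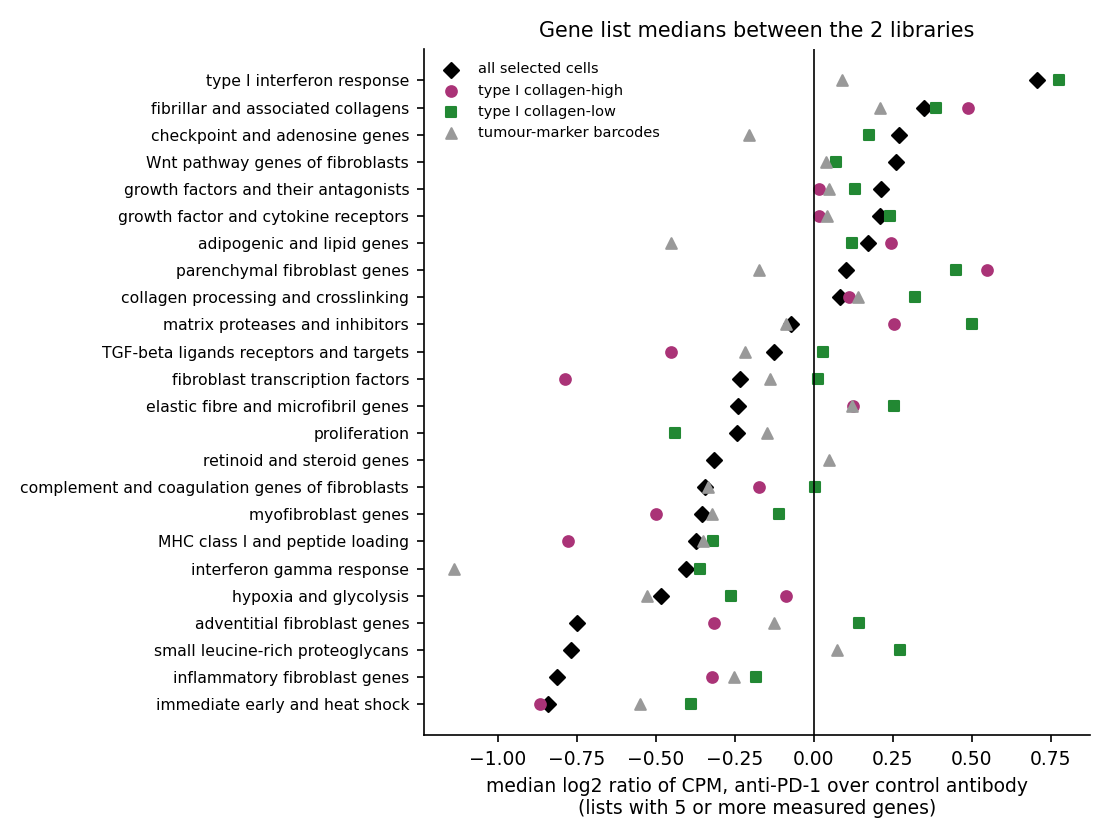
Median log2 ratio of CPM, anti-PD-1 over control, of each gene list with at least 5 measured genes, over all chosen cells (diamonds), type I collagen-high cells (circles), type I collagen-low cells (squares) and tumour-marker barcodes (triangles). The type I interferon list lies at 0.71 over all chosen cells against 0.09 in tumour-marker barcodes, and the immediate early list lies below 0 in all 4.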

How the data were processed

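The authors deposited 1 filtered 10x matrix of raw UMI counts per gene and barcode for each library. Per the labels' protocols a 10x Flex probe kit was used, with a 3′ protocol also named. Per the submitters' processing notes, Cell Ranger 7.0.1 and the mm10 build were used, whereas the matrix headers name Cell Ranger 9.0.1. Flex counts come from gene probes, so levels are compared within a gene and not between genes. From the deposited counts, a barcode was kept when 300 or more genes were detected and no more than 20% of its UMIs were mitochondrial (8395 of 8441 and 9422 of 9423). UMIs were summed per class and library and scaled to CPM. Tumour-marker barcodes had at least 500 CPM of the tumour-naming genes, and macrophage barcodes under 300 CPM and at least 5 UMIs of C1qa, C1qb and C1qc. Log2 ratios were taken for genes with at least 100 UMIs over both libraries, with exact conditional intervals. Levels have exact Poisson and shares exact binomial (Clopper-Pearson) intervals. The members and gene lists were chosen with earlier results of these data known. Named genes were the 10 highest and 10 lowest ratios (at least 20 CPM, at most 20% of UMIs in 1 cell, at most 5 times higher in other classes), the 10 highest over tumour-marker barcodes, and the largest members of each list. Apod, Islr, Ighm, Clu, Esrrg and the genes leading either group were named after their values were seen. Clustering used scanpy 1.11.5 (2000 variable genes without the rule genes, 20 components, 15 neighbours, Leiden resolution 0.5). The ratio function was tested on simulated counts. Alternatives changed membership, depth, weighting, centring and the UMI minimum.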

Additional observations from a re-analysis of the deposited data

Results flagged for a closer look

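Rsad2, an interferon-induced gene, had a log2 ratio of anti-PD-1 over control of −2.51 (−4.47 to −1.02) in the type I collagen-high cells and of 2.19 (1.65 to 2.78) in the type I collagen-low cells, of opposite sign. The difference was not tested. The high cells' value lies under the minimum of 100 UMIs that the ratios of the report required. They had 33 UMIs in 4 control cells, 54.5% of them in 1 cell, and 4 UMIs in 4 anti-PD-1 cells.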

How the results depend on the processing

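The dependence on settings was checked over 15 alternatives, 11 planned and 4 chosen after seeing the data (the type I collagen-high cells, the low cells, the high cells without the deepest of each library, and mean CPM per high cell), for 24 list medians and 141 genes. For the shares, C1qa and Pecam1 UMIs were also allowed, again chosen after seeing the data. No paired analysis was possible because each group has 1 library. The interferon gamma, type I interferon and retinoid medians kept their direction and moved within tolerance in every alternative that gave a value (11, 10 and 9), the type I interferon median between 0.50 and 0.78. The cutoff of 0.3 for the medians followed here was chosen after the values were seen. The difference in share of the high cells reversed to −0.121 points with C1qa and Pecam1 UMIs allowed and to −0.062 with 0 UMIs of Ptprc and Tyrobp, and kept its direction in the other 6 alternatives. The difference in share was 0.042 points for the high cells, 0.043 without the deepest and 3.42 as a share of barcodes under 300 CPM of tumour-naming genes. Genes over 2-fold higher were 13 and lower 21 with 0 UMIs of the tumour genes, where 461 genes were measured, 5 and 21 with cells thinned to 2000 UMIs, 152 and 353 at 30 UMIs per gene, and 19 and 92 in the high cells. Higher genes were 80 with 0 UMIs of Ptprc and Tyrobp. Lower genes were 60 without members over 3 times the median depth, 81 with clusters weighted equally, 34 in the low cells, 67 in the high cells without the deepest and 89 per high cell. The cause of these shifts was not tested.
The adventitial median was 0.51 with 0 UMIs of the tumour genes, −1.70 with 0 UMIs of Ptprc and Tyrobp, 0.39 without members over 3 times the median depth, −0.0015 per cell, −0.029 thinned, −0.054 with clusters weighted equally, −0.32 in the high cells, 0.14 in the low cells, 0.75 without the deepest and 0.046 per high cell. The myofibroblast median was −0.78 with 0 UMIs of Ptprc and Tyrobp and −0.80 without the deepest. The inflammatory median was −1.44 with 0 UMIs of Ptprc and Tyrobp, −0.42 thinned, −0.23 with clusters weighted equally, −0.32 in the high and −0.18 in the low cells, −1.29 without the deepest and −1.28 per high cell. Collagens were at 0.53 with 0 UMIs of Ptprc and Tyrobp. Small proteoglycans were at −0.082 without members over 3 times the median depth, −0.20 with clusters weighted equally and 0.27 in the low cells. Complement genes were at −0.0093 with 0 UMIs of the tumour genes, −0.63 with 0 UMIs of Ptprc and Tyrobp and 0.0049 in the low cells. MHC class I genes were at −0.10 with 0 UMIs of Ptprc and Tyrobp, −0.78 in the high cells, −0.92 without the deepest and −0.79 per high cell. Hypoxia genes were at 0.15 with 0 UMIs of the tumour genes, 0.046 thinned and −0.087 in the high cells. Immediate early genes were at −1.31 with 0 UMIs of Ptprc and Tyrobp, −0.39 in the low cells and −1.28 per high cell.
Among genes that reversed, C3 was at 0.49, Tnc at 2.68 and C4b at 0.26 with 0 UMIs of the tumour genes. Slit3 was at 0.054, Cd34 at 0.72 and Loxl1 at 0.15 without members over 3 times the median depth. Without the deepest high cells Tnfaip6 was at 0.39, Ccdc80 at 0.40, Cd34 at 0.75, Gfpt2 at 0.11, Prelp at 0.36 and Loxl1 at 0.086. Per high cell Slit3 was at 0.12, Tppp3 at 0.38, Spon1 at 0.039 and P4ha3 at 0.46. In the low cells Bgn was at 1.31 and Timp1 at 0.79, and Igfbp3 was at 0.20 per cell. Depth limits the high cells, where 3 UMIs are 10.8 and 15.6 CPM. At cluster resolution 1 the type I collagen-high cells in 1 cluster were within 1.5 times the 35 found at 0.5.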
